A study of Mus musculus with 12 samples.

Results

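Klf2, S1pr1 and S1pr4 are 3 genes of lymphocyte egress, the exit of T cells from thymus, spleen and lymph nodes into the blood. They were chosen by symbol among the 23174 entries of the expression tables, and all 3 stood on a single line in each table. Klf2 encodes a zinc finger transcription factor of resting T cells. S1pr1 encodes the receptor by which T cells sense sphingosine-1-phosphate (S1P), a lipid that is abundant in blood and scarce in tissue, and S1pr4 encodes a second S1P receptor of lymphocytes and other blood cells.

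As background, KLF2 binds the S1pr1 promoter and is needed for its expression in maturing thymocytes. The Klf2 gene itself is switched on by the ERK5 kinase through MEF2 factors and by the forkhead factor FOXO1, and it is switched off when PI3K and Akt signalling drives FOXO1 out of the nucleus. The surface protein CD69 pulls S1PR1 off the membrane, and the chemokine receptor CXCR4 holds immature cells in bone marrow and other niches rich in CXCL12, so both axes bear on where a T cell stays.

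The study sequenced RNA of 12 samples of T-ALL, an acute leukaemia of immature T lymphocytes, from C57BL/6 mice, and every sample carried the activated Notch1 allele that the labels name Notch1-deltaE+. In the ex vivo experiment, 3 samples of leukaemia cells received AMD3100, a small molecule that blocks CXCR4, and 3 received vehicle. In the other experiment, 3 primary tumours were Cxcr4+/+ (numbered 1, 2 and 4) and 3 were Cxcr4-/- (numbered 5, 7 and 8). Per the labels, cells came from spleen and were kept on mitomycin-treated OP9 stromal cells in medium with IL-7, a T cell growth factor, at 5 ng/ml, a protocol given for all 12 samples. Whether the tumour libraries were made from cells cultured in this way was not tested. The sources used here do not state ages, the dose and duration of AMD3100 or how Cxcr4 was deleted. Nothing in the labels states whether replicates are different mice or different cultures, so each p-value reflects only how these particular samples vary, possibly for technical reasons. Values are FPKM, read fragments scaled by transcript length and by library depth, which allow levels of different genes to be compared within a table. The 2 tables were made separately, so levels are compared only within each of them.

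All 12 genes of the T cell marker list, among them Cd3e and Lck, were above 0 in each library. The ex vivo samples numbered 3 stood apart from those numbered 1 and 2. Pdgfrb, a growth factor receptor gene of stromal cells, was at 136, 160 and 4.2 FPKM in vehicle 1, 2 and 3 and at 144, 186 and 11.2 in AMD3100 1, 2 and 3. It carried most of the sum of 12 stromal markers in samples 1 and 2, and the other 11 summed to 28.8, 45.2 and 12.4 FPKM with vehicle and 34.4, 21.1 and 14.9 with AMD3100. Cxcl12 was among 8 of the stromal markers at 0 in all 6 tumours, whereas ex vivo it was at 3.84 to 15.9 FPKM. Of the 8, Dcn and Lum were at 0 ex vivo too. Tumours differed in their content of other cells. Genes with symbols starting Hba or Hbb took 0.926% to 17.4% of the summed FPKM in Cxcr4+/+ tumours and 1.78% to 13.8% in Cxcr4-/- tumours, and the summed T cell markers were 5735, 1543 and 1965 FPKM in Cxcr4+/+ tumours 1, 2 and 4 and 2076, 4472 and 3536 in Cxcr4-/- tumours 5, 7 and 8. Cxcr4 was at 241, 155 and 206 FPKM in the Cxcr4+/+ tumours and at 23.2, 78.9 and 21.9 FPKM in the Cxcr4-/- tumours, so every tumour matched its label in direction and no Cxcr4-/- tumour was at 0. Xist, an RNA made from the inactive X chromosome of female cells, was at 143, 96.4 and 147 FPKM in the Cxcr4+/+ tumours and at 0.829, 2.80 and 2.69 in the Cxcr4-/- tumours, so genotype and whatever sets the Xist level cannot be told apart in the tumours. Ex vivo, where the protein and not the gene is the target, Cxcr4 was at 145 ± 35.8 FPKM with vehicle and 177 ± 38.5 with AMD3100 (SD, n = 3).

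The regions upstream of the Klf2 and S1pr4 start sites show how differently these genes begin, and they are printed because the Klf2 region holds a motif of the MEF2 factors described further on. Both come from RefSeq on build GRCm38.p6, cover 250 bases up to the annotated start, and read in the direction of transcription. Promoters matched 2 of the 3 genes, and S1pr1 was not matched. Capitals mark the match to the MEF2 consensus in Klf2 and the KLF motif CCACCC (on either strand) in both.
Klf2 (chr8:72318812-72319061, plus strand): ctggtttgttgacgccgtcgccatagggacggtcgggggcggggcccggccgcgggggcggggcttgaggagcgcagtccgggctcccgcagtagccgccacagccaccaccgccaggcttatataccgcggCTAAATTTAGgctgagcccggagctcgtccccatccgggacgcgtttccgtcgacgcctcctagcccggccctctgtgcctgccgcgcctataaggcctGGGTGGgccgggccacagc
S1pr4 (chr10:81500138-81500387, minus strand): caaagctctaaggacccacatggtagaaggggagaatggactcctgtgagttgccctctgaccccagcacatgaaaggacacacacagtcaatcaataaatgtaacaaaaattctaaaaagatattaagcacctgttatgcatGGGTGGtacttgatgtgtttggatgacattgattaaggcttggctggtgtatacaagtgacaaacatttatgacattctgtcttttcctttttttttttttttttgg
The Klf2 region was 71.2% G and C and the S1pr4 region 38.8%, against a median of 52.4% over all promoters. The MEF2 match began 118 bases before the Klf2 start. That consensus, searched on both strands, was found in 2.92% of the 32851 RefSeq promoters cut to the same length, and not in the S1pr4 region. CCACCC, read here as GGGTGG, began 19 bases before the Klf2 start and 107 bases before the S1pr4 start, and 28.1% of promoters held it. The FoxO motif GTAAACA was in neither region (3.17% of promoters). The GC box GGGCGG, left in lower case, matched 2 times in Klf2 and not in S1pr4, and 32.7% of promoters held it. No match overlapped another. A match describes letters only.

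Klf2 was higher with AMD3100 in each of the 3 same-numbered pairs, but its level depended far more on the sample number than on the drug. Vehicle samples 1, 2 and 3 were at 14.0, 17.4 and 0.114 FPKM, and AMD3100 samples 1, 2 and 3 were at 33.7, 41.5 and 0.928 FPKM. The samples numbered 3 were near 0 in both groups, so the groups overlapped (10.5 ± 9.16 against 25.4 ± 21.5 FPKM, SD, n = 3). Within pairs 1 and 2 the level was 2.41 and 2.38 times that of vehicle. The value of 0.114 in vehicle 3 is too low for its ratio to be read.

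S1pr1 was at 2.27, 4.94 and 1.11 FPKM in vehicle 1, 2 and 3 and at 6.77, 8.79 and 2.57 FPKM in AMD3100 1, 2 and 3. It was higher in every pair, by 2.99, 1.78 and 2.32 times, and the order of the numbers was that of Klf2, with sample 2 highest and sample 3 lowest in both groups. The groups overlapped, since vehicle 2 lay above AMD3100 3. S1pr4 was at 8.20, 4.55 and 6.80 FPKM with vehicle and at 10.3, 7.48 and 9.57 FPKM with AMD3100. It too was higher in every pair, by 1.26, 1.64 and 1.41 times, but its order over the numbers was another, with sample 2 lowest in both groups. A rise in 3 of 3 pairs was seen for 30.8% of the 10245 genes tested.

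**Figure D1:**
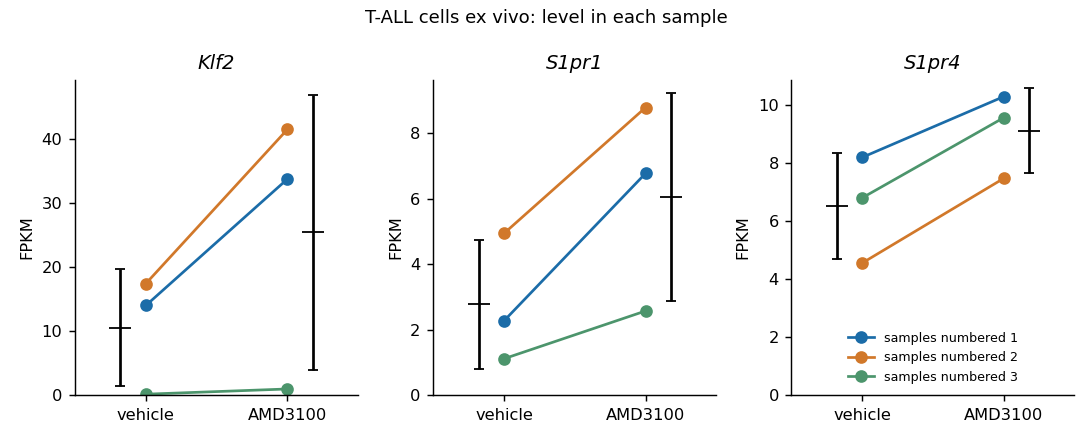
FPKM of Klf2, S1pr1 and S1pr4 (y axes, each from 0) in vehicle and AMD3100 samples, with lines joining samples of the same number and black bars for the mean and SD of 3 samples. Every line rises, while the samples numbered 3 lie lowest for Klf2 and S1pr1 and between the others for S1pr4.

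Tested without pairing, none of the 3 genes was called in limma at an adjusted p under 0.05 over all genes, and none had an unadjusted p under 0.05. That fit called 0.127% of genes, and 0.0488% as higher, while 9.56% were higher at an unadjusted p under 0.05. The log2 changes of FPKM + 1, a scale that understates the change of low genes, were 1.07 for Klf2 (SE 1.59, adjusted p = 0.781), 0.91 for S1pr1 (SE 0.53, adjusted p = 0.387) and 0.45 for S1pr4 (SE 0.23, adjusted p = 0.325). With the replicate number as a block, limma called all 3 higher, in a fit that called 9.96% of genes higher and 19.9% in all. The changes are the same and the errors smaller, with an SE of 0.12 for Klf2 (adjusted p = 0.0197), 0.16 for S1pr1 (adjusted p = 0.0258) and 0.11 for S1pr4 (adjusted p = 0.0470). The 95% intervals of the paired changes were 0.75 to 1.39, 0.50 to 1.32 and 0.17 to 0.73.

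Leaving out a pair ended some or all of these calls. Without pair 1 the paired adjusted p was 0.10, 0.118 and 0.143 for Klf2, S1pr1 and S1pr4, and without pair 2 it was 0.0780, 0.0882 and 0.172. Without pair 3, where Klf2 was near 0, Klf2 and S1pr1 were still called (0.0175 and 0.0403) and S1pr4 was not (0.0959). The unpaired change of Klf2 turned to -0.23 without vehicle 3. An exact permutation test of 3 samples against 3 gave p = 0.5 for Klf2, 0.2 for S1pr1 and 0.2 for S1pr4, where the smallest possible two-sided p is 0.1.

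Klf2 and S1pr1 were low in the same samples as Pdgfrb, those numbered 3. The sum of the 11 other stromal markers was also lowest there. Within pair 2 that sum was lower with AMD3100 (45.2 and 21.1 FPKM), whereas in pairs 1 and 3 it was higher. In the paired fit, where 9.96% of all genes rose, none of 7 stromal markers above the minimum rose and 1 fell. Their part in the level of Klf2 was not tested.

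Some genes on the list of natural killer and cytotoxic markers moved with the drug, and others did not. Of 9 listed, 4 were above the minimum, and 2 of these rose in the paired fit (median log2 change 1.22). In that fit 9.96% of all genes tested rose. Nkg7, a granule protein gene of killer cells, was at 28.3, 41.1 and 42.3 FPKM with vehicle and 71.0, 98.4 and 264 with AMD3100, without overlap (log2 1.72, paired adjusted p = 0.0247 in limma). Gzmb, which encodes granzyme B, was at 0.574, 6.96 and 6.22 FPKM against 1.84, 20.5 and 43.4 (log2 1.63, paired adjusted p = 0.0345). Prf1, the perforin gene, had a log2 change of 0.81 (adjusted p = 0.0538) and Gzma, by far the highest of the list, one of 0.09 (adjusted p = 0.637). Ncr1 and Klrk1, receptors of natural killer cells, were at 0 in all 6 libraries. Itgb3, an integrin gene and the 1 platelet marker above the minimum, was at 12.5, 23.0 and 6.86 FPKM with vehicle and 24.5, 38.7 and 25.0 with AMD3100 (log2 1.12, paired adjusted p = 0.0284), while the platelet genes Pf4 and Ppbp were at 0. The log2 change of Klf2 was 1.07 beside these. Their part in the result was not tested.

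The neutrophil markers summed to 0.125 to 12.3 FPKM with vehicle, all of it from Mmp9, and 0.402 to 1.74 with AMD3100, and the B cell markers to 0.370 to 1.67 and 0.815 to 1.32. Of 12 endothelial markers, Cdh5, Kdr, Tek and Tie1 were among 7 at 0 in all 6 libraries. T cell markers summed to 5538 to 5814 FPKM with vehicle and 5098 to 5355 with AMD3100, without overlap. Divided by the geometric mean of Cd3e, Cd3g and Lck, genes of the T cell receptor complex and its kinase, the paired log2 changes were 1.22, 1.02 and 0.56 for Klf2, S1pr1 and S1pr4, and that division moved the median of all genes by 0.12. Nuclear RNAs moved with the groups too: Malat1, Neat1, Xist and Kcnq1ot1, all 4 listed transcripts above the minimum, rose in the paired fit. That fit called 9.96% of all genes higher. The summed list of nuclear RNAs was at 230 to 426 FPKM with vehicle and 670 to 1095 with AMD3100. Their part in the result was not tested.

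The S1P receptors did not move together. S1pr2, a receptor that couples to G12 and G13 proteins and restrains migration, was at 15.3, 18.7 and 17.3 FPKM with vehicle and 12.2, 18.4 and 19.6 with AMD3100. Its paired log2 change was -0.05 (95% interval -0.34 to 0.24, adjusted p = 0.760), and it was lower in 2 pairs and higher in 1. S1pr3, a receptor of vessel wall and stroma, stayed under the minimum mean of 1 FPKM set for testing, and S1pr5, a receptor of natural killer cells, was listed at 0 in all 6 samples. In vehicle samples the order by FPKM was S1pr2 (17.1 ± 1.73), S1pr4 (6.52 ± 1.84), S1pr1 (2.77 ± 1.97) and S1pr3. S1pr2 lay above S1pr4 in all 3, whereas S1pr4 and S1pr1 overlapped.

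The make-up of the receptor transcripts differed between the tables. Each share is taken within a library, so a factor common to the whole library cancels. A difference between the tables in how single genes were measured would not cancel, and it was not tested. Ex vivo, S1pr2 gave the largest share of the summed FPKM of the 5 receptors in all 6 libraries (58.7% to 68.4% with vehicle, 41.3% to 61.5% with AMD3100). In the tumours S1pr1 gave the largest share in all 6 (57.8% to 69.9% in Cxcr4+/+, 52.4% to 73.2% in Cxcr4-/-), and S1pr2 gave 3.24% to 10.9%. With AMD3100 the share of S1pr1 was higher in each pair, at 22.9%, 25.2% and 8.05% against 8.70%, 17.2% and 4.37%. The share of S1pr4 was 24.7% ± 8.02 in vehicle samples and 25.2% ± 1.75 in Cxcr4+/+ tumours (SD, n = 3). No test was made across the tables, because experiment, culture and cell mixture cannot be told apart there.

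**Figure D2:**
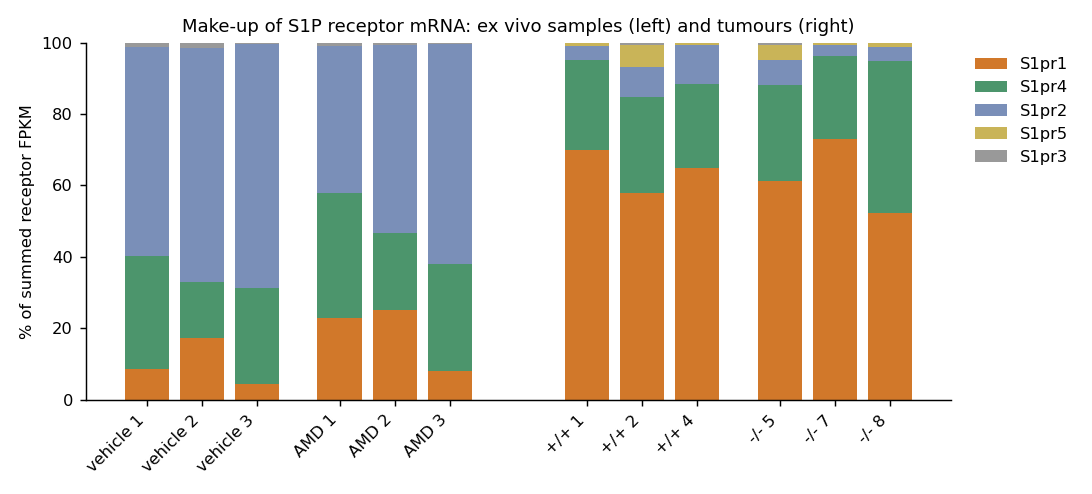
Share of each S1P receptor gene in the summed FPKM of the 5 receptors (y axis, %), as stacked bars for each of the 12 libraries, with ex vivo samples on the left and tumours (+/+ and -/-) on the right. S1pr2 is the largest part of every ex vivo bar, and S1pr1 is the largest part of every tumour bar.

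Of the genes that make, move and break down S1P, 5 of 11 were above the minimum ex vivo. Of these, 1 rose and none fell in the paired fit (median log2 change -0.09, against 0.00 over all genes tested). That fit called 1020 of 10245 genes higher (9.96%) and 1016 lower. Sphk2, a kinase that makes S1P, was at 13.2, 13.0 and 13.1 FPKM with vehicle and 18.1, 16.3 and 17.5 with AMD3100, and rose by a log2 change of 0.37 (adjusted p = 0.0360 in limma). The groups of Sphk2 did not overlap, which held in the upward direction for 13.1% of genes. Sphk1, the other such kinase, and the transporter Spns2 stayed under the minimum. The lyase Sgpl1, which degrades S1P, had a log2 change of 0.18 (adjusted p = 0.203) and the phosphatase Sgpp1 one of -0.09 (adjusted p = 0.540).

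Of 17 measured genes of S1P receptor signalling and internalisation, 7 rose and none fell in the paired fit, with a median of 0.32. Among all genes tested 9.96% rose. Arrb2, a beta-arrestin that takes receptors off the membrane, rose from 35.6 ± 12.7 to 54.3 ± 15.1 FPKM (log2 0.63). Dock2, the exchange factor that activates Rac in migrating lymphocytes, rose from 57.5 ± 6.64 to 75.0 ± 9.14 FPKM (log2 0.38), without overlap between the groups.

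Among 13 measured partners of homing and thymic egress, 7 rose and none fell in the paired fit (median 0.37), where 9.96% of all genes rose. Cd69, whose product opposes S1PR1 at the membrane, was at 4.42, 3.79 and 2.86 FPKM with vehicle and 18, 9.20 and 21.5 with AMD3100 (log2 1.81, paired adjusted p = 0.0222). Its groups did not overlap. Ccr7, the receptor for lymph node chemokines, was at 16.3, 16.2 and 1.14 FPKM against 30.1, 24.1 and 2.47 (log2 0.69, paired adjusted p = 0.0201), and like Klf2 it was lowest in the samples numbered 3. Itgb7, an integrin of gut homing, was highest there instead, at 21.1, 17.2 and 78.3 FPKM with vehicle and 43.1, 32.6 and 206 with AMD3100 (log2 1.09). The membrane proteins Ms4a4b (log2 1.31) and Ms4a6b (log2 0.62), both genes of maturing T cells, rose as well. Il7r, which encodes the IL-7 receptor and is a FOXO1 target, had a log2 change of -0.17 (adjusted p = 0.685).

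Of 8 other KLF genes above the minimum, 1 rose and 1 fell in the paired fit, where 9.96% of all genes rose. Klf13 rose from 50.7 ± 15.4 to 70.5 ± 10.3 FPKM (log2 0.50), and Klf10, a gene induced by TGF-beta, fell from 22.3 ± 8.49 to 13.5 ± 3.82 FPKM (log2 -0.65). Klf3, which competes with KLF2 at shared sites, had a log2 change of 0.37 (adjusted p = 0.0959) and Klf6 one of 0.08 (adjusted p = 0.633).

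Upstream of Klf2, 4 of 13 measured genes of the ERK5 and MEF2 arm rose and none fell (median 0.19). Changes were above 0 for 9 of the 13 and below 0 for 4. Mapk7, the gene of the ERK5 kinase itself, was lower with AMD3100 in each pair but was not called. Its levels were 0.889, 0.834 and 0.866 times those of vehicle in pairs 1, 2 and 3. Mef2a and Mef2b had means 0.970 and 0.931 times those with vehicle, with pairs in both directions. Mef2d, a MEF2 factor of the kind whose consensus lies in the Klf2 region printed above, rose from 42.6 ± 13.7 to 67.5 ± 26.5 FPKM (log2 0.62). The histone deacetylases Hdac4 and Hdac7, which bind and repress MEF2 factors, rose too, Hdac4 from 22.1 ± 2.55 to 34.9 ± 3.26 FPKM (log2 0.63) and Hdac7 by a log2 change of 0.43. In the FoxO and PI3K-Akt arm 6 of 17 rose and none fell (median 0.29). Foxo1 was at 12.1, 26.8 and 8.01 FPKM with vehicle and 23.3, 42.0 and 15.5 with AMD3100 (log2 0.80), with the same order of sample numbers as Klf2 and S1pr1. Foxo3 (log2 0.52) and Foxp1, a forkhead factor of T cell quiescence (24.3 ± 4.33 to 41.0 ± 2.18 FPKM, log2 0.75), rose as well.

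Genes that FoxO factors are known to drive did not all follow Klf2. Of 16 measured, 5 rose and 2 fell (median 0.31) in the paired fit, where 9.96% of all genes rose. Pik3ip1, an inhibitor of PI3K, rose from 31.2 ± 3.61 to 46.8 ± 6.91 FPKM (log2 0.57), and the antiproliferative gene Btg1 from 16.4 ± 4.11 to 27.1 ± 4.61 (log2 0.71). Txnip, a thioredoxin inhibitor that also responds to glucose, fell from 33.9 ± 13.3 to 10.8 ± 2.24 FPKM (log2 -1.51, paired adjusted p = 0.0197 in limma), and Sesn1, a stress-induced inhibitor of mTORC1 signalling, fell from 32.6 ± 9.58 to 26.1 ± 6.97 FPKM (log2 -0.30, adjusted p = 0.0391).

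Over these 8 lists, 31 of 90 measured genes rose and 3 fell in the paired fit, in which 9.96% of all genes rose. Without pairing, limma called 0 of the 90, and 18 were higher and 2 lower at an unadjusted p under 0.05. The paired counts were 0 higher and 0 lower without pair 1, 0 and 1 without pair 2, and 21 and 2 without pair 3. These counts describe lists chosen with results of these data known.

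**Figure D3:**
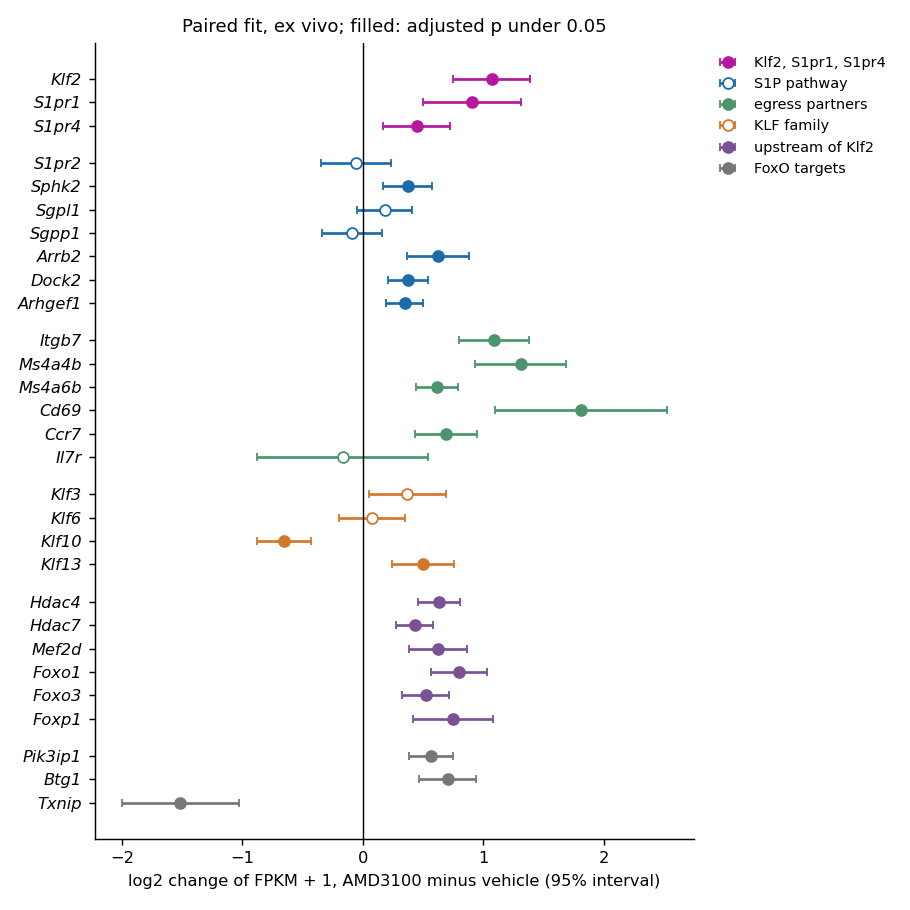
Paired log2 change of FPKM + 1 (x axis, AMD3100 minus vehicle) with its 95% interval for Klf2, S1pr1, S1pr4 and genes of the S1P pathway, egress, the KLF family, the arms upstream of Klf2 and FoxO targets, where filled circles passed an adjusted p under 0.05. Klf2 lies at 1.07, S1pr2 at -0.05 and Txnip at -1.51.

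In the primary tumours Klf2, S1pr1 and S1pr4 had means 3.02, 2.77 and 3.35 times as high in Cxcr4-/- as in Cxcr4+/+ tumours, and no gene of the 3 passed the test over all genes. Klf2 was at 116, 71.9 and 48.6 FPKM in Cxcr4+/+ tumours 1, 2 and 4 and at 140, 302 and 274 FPKM in Cxcr4-/- tumours 5, 7 and 8. The lowest Cxcr4-/- tumour lay above the highest Cxcr4+/+ tumour. S1pr1 was at 81.1, 32.5 and 25.0 FPKM against 73.0, 213 and 98.4 FPKM. Its groups overlapped, since Cxcr4+/+ tumour 1 lay above Cxcr4-/- tumour 5.

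S1pr4 was at 29.2, 15.2 and 9.05 FPKM in Cxcr4+/+ tumours and at 31.8, 67.0 and 80.0 FPKM in Cxcr4-/- tumours, without overlap. Groups failed to overlap in this direction for 4.01% of the 10741 genes tested, and for 2 of these 3. The log2 changes were 1.60 for Klf2 (SE 0.44), 1.49 for S1pr1 (SE 0.55) and 1.73 for S1pr4 (SE 0.51), each with an adjusted p of 0.986 in limma. Their 95% intervals were 0.56 to 2.63, 0.18 to 2.79 and 0.53 to 2.94.

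Limma called 4 genes in all, 0.0372% of those tested and 0.0186% as higher, and none of the 3. All 3 had an unadjusted p under 0.05 (0.00788, 0.0305 and 0.0111), as did 2.26% of genes in the upward direction. The exact permutation p was 0.1 for Klf2 and S1pr4, the smallest that 3 against 3 can give, and 0.2 for S1pr1. The order of the Cxcr4+/+ tumours was shared among the 3 genes, with number 1 highest and number 4 lowest for each. In Cxcr4-/- tumours number 5 was lowest for each, while number 7 was highest for Klf2 and S1pr1 and number 8 for S1pr4.

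Tumours 1 and 5 were also those with the most and the least T cell RNA in their genotype, and in bulk samples fewer cells of a type and less RNA per cell cannot be told apart. The geometric mean of Cd3e, Cd3g and Lck was 818, 224 and 296 FPKM in Cxcr4+/+ tumours 1, 2 and 4 and 329, 730.5 and 605 in Cxcr4-/- tumours 5, 7 and 8. Divided by it, Klf2 was at 14.2%, 32.1% and 16.4% in Cxcr4+/+ and 42.6%, 41.3% and 45.2% in Cxcr4-/- tumours. S1pr1 was at 9.92%, 14.5% and 8.46% against 22.2%, 29.1% and 16.3%, and S1pr4 at 3.57%, 6.77% and 3.06% against 9.66%, 9.17% and 13.2%.

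On this scale the groups overlapped for none of the 3 genes, where 1.63% of genes lay apart in the upward direction. The log2 changes were then 1.13, 1.02 and 1.29 for Klf2, S1pr1 and S1pr4, while the division moved the median of all genes from -0.03 to -0.47, and the adjusted p was 0.933 for each. With the T cell level as a covariate, an alternative added after the values were seen, the changes were 1.30, 1.06 and 1.38 (adjusted p = 0.424, 0.577 and 0.474).

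**Figure D4:**
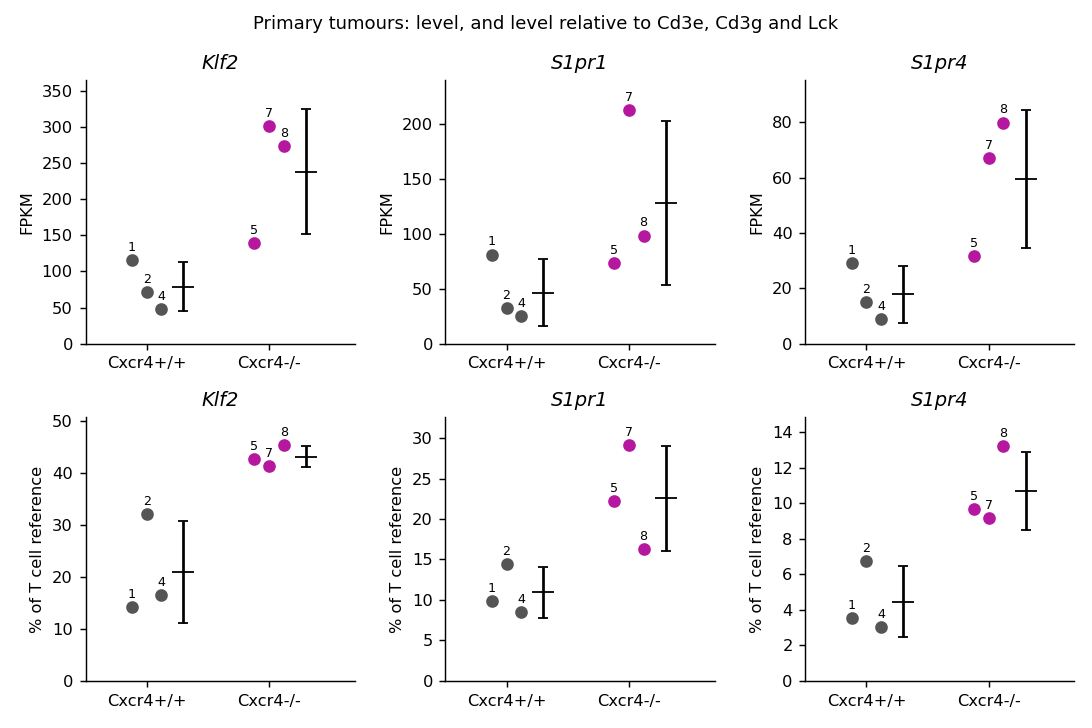
Klf2, S1pr1 and S1pr4 in each primary tumour, as FPKM (upper row) and as a percentage of the geometric mean of Cd3e, Cd3g and Lck (lower row), with tumour numbers beside the points and black bars for the mean and SD of 3 tumours. Klf2 and S1pr4 lie apart between the genotypes in both rows, and S1pr1 only in the lower row.

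Markers of other blood cells also differed among the tumours. The 10 B cell markers, of a cell type that carries S1PR1, summed to 12.3, 12.5 and 2.84 FPKM in Cxcr4+/+ tumours 1, 2 and 4 and to 13.2, 21.7 and 23.4 in Cxcr4-/- tumours 5, 7 and 8, without overlap. The T cell gene Ptcra, a marker of immature thymocytes, was at 124, 23.6 and 57.8 FPKM against 6.98, 7.55 and 25.6, with overlap. The stromal markers summed to 5.51 to 22.9 and 1.19 to 2.77, sums that overlapped without Pdgfrb (0.227 to 13.8 and 0 to 1.27). Natural killer and cytotoxic markers summed to 556 to 2124 and 770 to 2360 FPKM, macrophage markers to 13.4 to 352 and 60.9 to 121, and the neutrophil markers, of a cell type that carries S1PR4, to 5.68 to 3206 and 67.9 to 339. Their part in the result was not tested. The endothelial markers Cdh5, Kdr, Tek and Tie1 were listed at 0 in all 6 tumours. Without Cxcr4+/+ tumour 1 and Cxcr4-/- tumour 7, the richest in T cell markers, the log2 changes were 1.71, 1.54 and 2.01, and without Cxcr4+/+ tumour 4 and Cxcr4-/- tumour 5, those with most haemoglobin, they were 1.64, 1.48 and 1.75. Both were added after the values were seen.

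Among the tumours the order by FPKM in Cxcr4+/+ was Klf2 (78.9 ± 34.4), S1pr1 (46.2 ± 30.5), S1pr4 (17.8 ± 10.3), S1pr2 (4.59 ± 0.359) and S1pr5 (1.44 ± 1.71), and S1pr3 stayed under 1 FPKM. The ranges of Klf2 and S1pr1 overlapped across tumours, as did those of S1pr1 and S1pr4. Within each of the 3 tumours, Klf2 lay above S1pr1, S1pr1 above S1pr4 and S1pr4 above S1pr2. S1pr2 was at 4.85, 4.73 and 4.18 FPKM in Cxcr4+/+ and 8.49, 9.42 and 7.21 in Cxcr4-/- tumours, without overlap, and was not called (log2 0.74, adjusted p = 0.986). S1pr5 had a log2 change of 0.77 (adjusted p = 0.986).

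No gene of the other lists was called in the tumours. Limma called 0 of 97, and 7 were higher and 0 lower at an unadjusted p under 0.05, where 2.26% of all genes were higher. That count of 7 depended on single tumours and on scaling. It was 22 higher and 1 lower without Cxcr4+/+ tumour 1, 2 higher without Cxcr4+/+ tumour 2, without Cxcr4+/+ tumour 4 or without Cxcr4-/- tumour 7, and 4 higher without Cxcr4-/- tumour 8. It was 2 higher after rescaling without haemoglobin genes, 1 relative to Cd3e, Cd3g and Lck, and 12 higher and 2 lower with the T cell level as covariate. Of the 7, 4 stood among the 14 homing and egress partners, Il7r, Ms4a4b, Ms4a6b and Cd69. Il7r was at 30.5, 10.7 and 17.9 FPKM in Cxcr4+/+ and 59.6, 109 and 66.7 in Cxcr4-/- tumours (log2 2.01), Ms4a4b had a log2 change of 1.69 and Cd69 one of 1.70, each with an adjusted p of 0.986 and no overlap between the genotypes. Ccr7 was at 27.1, 15 and 14.2 FPKM against 62.7, 121 and 18.8, with overlap. Among signalling genes Gna11, an alpha subunit of the Gq class, had a log2 change of 0.88 and Rac2, the Rac protein of blood cells, one of 0.79.

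In the arms upstream of Klf2, the PI3K subunit gene Pik3cd had a log2 change of 1.13, Foxp1 one of 0.99 and the kinase gene Map3k3 one of 0.85, each with an adjusted p of 0.986. Foxo1 was at 83.6, 24.0 and 19.5 FPKM in Cxcr4+/+ and 28.3, 83.3 and 29.3 in Cxcr4-/- tumours (log2 0.26, adjusted p = 0.995). Its change relative to Cd3e, Cd3g and Lck was -0.20, where that of Klf2 was 1.13. The FoxO target Sesn3 had a log2 change of 1.15 and Irs2 one of -0.58. Medians of the 8 lists ran from 0.02 for the ERK5 and MEF2 arm to 0.76 for the other S1P receptors, against -0.03 over all genes tested.

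The genes whose pattern was most like that of each member were ranked by Pearson's r of log2(FPKM + 1) over the 6 samples of each table, taking the lower of the 2 values among 9489 genes. These are descriptions without a p, since the samples share groups, numbers and T cell content. For Klf2 they were Smad7, an inhibitor of TGF-beta signalling (r = 0.985 ex vivo and 0.976 in the tumours), Tmsb10 (0.974 and 0.978), Batf (0.973 and 0.976), Pim2 (0.975 and 0.959) and Junb (0.956 and 0.957). Smad7 was at 1.58, 1.99 and 0 FPKM in vehicle 1, 2 and 3 and at 4.02, 3.21 and 0.109 with AMD3100, so it shared the low values of the samples numbered 3. For S1pr1 they were the proton-sensing receptor Gpr65 (0.984 and 0.967), the cofilin phosphatase Ssh2 (0.963 and 0.973), Llgl2, Madd and Ptpn23, the last with 0.945 and 0.976. For S1pr4 they were Dnajc14 (0.918 and 0.929), Tnfaip8l2, Rnf166, Rac2 (0.910 and 0.916) and Gimap1.

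Among themselves, Klf2 and S1pr1 had r = 0.875 ex vivo and 0.943 in the tumours, which placed S1pr1 at rank 54 for Klf2. Klf2 and S1pr4 had r = 0.992 in the tumours and -0.0242 ex vivo. S1pr4 therefore ran with Klf2 across the tumours, whereas ex vivo it kept its level in the samples numbered 3, where Klf2 was near 0.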

How the data were processed

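Poly-A RNA libraries (strand-specific by the dUTP method) gave single reads of 50 bases on a HiSeq instrument, per the labels' protocols. The authors deposited FPKM values in 2 tables of 6 samples. CASAVA, TopHat and build mm9 are named in the submitters' processing notes. The sources used here do not state which program or annotation gave the FPKM. FPKM do not give read totals, so no counting intervals are given. Gapdh, a glycolysis gene active in most cells, was at 0 to 0.179 FPKM ex vivo and 0 to 0.532 in the tumours. A value at or near 0 therefore need not mean that a transcript was absent.

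Separate two-sided limma fits (version 3.58.1, R 4.3.3, moderated with a trend on mean level) were made for each table on log2(FPKM + 1). Genes averaging 1 FPKM or more entered, 10245 ex vivo and 10741 in the tumours. Benjamini-Hochberg adjustment covered all of them, and 0.05 was the threshold for calls. "Rose" and "fell" refer to the paired fit ex vivo. Same-numbered ex vivo samples deviated together from their group means (correlations of 0.467, 0.579 and 0.619), all above 0.1, so the numbers were taken as pairs, although no label explains the number. Tumour genotypes share no numbers. The unpaired fits were tested on simulated data, and the paired fit was not.

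The 3 genes, the lists and the tests were chosen with earlier results of these data known. Besides the 3 genes, the genes named are the other S1P receptors and preset egress and KLF genes, and up to 3 genes of each list with the smallest p (paired fit ex vivo). Not every gene that this rule names is reported here. Sesn1, Mapk7, Mef2a, Mef2b, Gapdh, Ptcra, Xist and, in the tumours, Ms4a6b were chosen after their values were seen. So were the other nuclear RNAs and the stromal, cytotoxic, platelet and other marker genes named. Alternatives were pseudocounts, filters, scalings, variance models, leaving out libraries, and the block.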

Additional observations from a re-analysis of the deposited data

How the results depend on the processing

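Klf2, S1pr1 and S1pr4 stayed higher with AMD3100 and in Cxcr4-/- tumours under every alternative run, except that the unpaired change of Klf2 ran from -0.23 to 2.51 when single libraries were left out. With the replicate block the log2 changes, all called, were 1.07 for Klf2, 0.91 for S1pr1 and 0.45 for S1pr4. With the block and median-of-ratios scaling they were 1.07, 0.92 and 0.46. With the block and quantile normalisation they were 0.98, 0.82 and 0.39, and S1pr4 was no longer called (adjusted p = 0.0725). With the block and relative to Cd3e, Cd3g and Lck (added after the values were seen) they were 1.22, 1.02 and 0.56. With the block and without pair 3, Klf2 was at 1.21 and S1pr1 at 0.99, both called. In the tumours no alternative called any of the 3. Their changes without single tumours ran from 1.30 to 1.94 for Klf2, 1.05 to 1.98 for S1pr1 and 1.36 to 2.15 for S1pr4, and their adjusted p ran from 0.493 to 1.00. Rescaled without haemoglobin genes, which moved the median of all genes to -0.16, the changes were 1.45, 1.35 and 1.59.

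The count of called genes ex vivo, 13 as reported, was 8 without a filter, 188 at a mean of 5 FPKM, 89 with median-of-ratios scaling (24 higher and 65 lower, against 5 and 8 as reported), 3 with quantile normalisation, 1 without a trend and 3 to 5 without single libraries. With the block it was 2036, then 2029 with median-of-ratios, 1914 with quantile normalisation, 1698 relative to the T cell genes (1378 higher and 320 lower, against 1020 and 1016), and 9, 7 and 1207 without pairs 1, 2 and 3. In the tumours the 4 calls became 0 without a filter, 2 relative to the T cell genes, 8 with the T cell level as covariate, 1 without tumours 1 and 7 together and 0 to 4 without single tumours. The cause was not tested.

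Of the other named genes, 7 of 38 ex vivo and 3 of 23 in the tumours turned in sign somewhere. Mapk7, Mef2a, Mef2b, Cxcl12 and Gapdh are not counted there. Without single ex vivo libraries or pairs, Ccr7 ran from -0.31 to 1.70, Il7r from -0.53 to 0.33 (0.24 with the block and without pair 3), Klf6 from -0.058 to 0.17, S1pr2 from -0.18 to 0.15 (0.072 with the block and without pair 1), Sgpp1 from -0.37 to 0.087, Pdgfrb from -1.10 to 1.76 and Gzma from -0.25 to 0.38. Relative to the T cell genes with the block, S1pr2 was at 0.070 and Sgpp1 at 0.038. In the tumours Foxo1 was at -0.20 relative to the T cell genes and -0.23 with the covariate. Without single tumours Foxo1 ran from -0.24 to 0.90 and Sphk1 from -0.098 to 2.55, and S1pr5 was at -0.0098 without tumours 4 and 5 together. S1pr1 has no value at a minimum of 5 FPKM ex vivo, and TMM scaling was not run. FPKM give no read depth, so values under 1 FPKM, such as Klf2 in the samples numbered 3, have no stated precision.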
